A study of Mus musculus with 178 samples.

Results

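Blood of non-responder mice taken on Day 4, before the first dose of anti-PD-1, was compared between the 2 series of ear tags that the study used. The library names hold a library number, a day and an ear tag, and the libraries numbered 16 to 44 on Day 4 were those of the non-responders. Of these 29 libraries, 7 came from mice with 4-digit tags starting with 72 (the 4-digit series) and 22 from mice with 3-digit tags starting with 3 (the 3-digit series), out of 178 libraries in the whole cohort. All mice were C57BL/6J, 6 to 8 weeks old, and carried 4MOSC1 tumors, a carcinogen-induced mouse oral squamous carcinoma line injected into the tongue or the buccal mucosa. Both groups were bled behind the eye (retro-orbital puncture) into TRIzol, and both were given anti-PD-1 (clone RMP1-14) after this bleed and did not respond by the study's criteria. By the tumor volumes in the study's records, mice with the longer tags started with larger tumors. The starting size of the tumor and everything else that separated the tag series, such as the batch of mice, injections, bleeds or libraries, therefore cannot be told apart in this comparison. Each library came from 1 mouse, named here by its response and ear tag (NR-7203, R-311), and the labels do not say which mice shared a cage, a bleed or a library preparation.

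Whole blood RNA is mostly RNA of reticulocytes, with smaller parts from neutrophils, monocytes, lymphocytes and platelets. Epithelial genes are a different matter: keratins 13 and 4 are the paired keratins of the upper layers of the oral and esophageal lining, keratins 6a and 6b mark activated or moist epithelium, keratins 5 and 14 mark its basal layer, and mucins coat its surface. Circulating blood cells are not known to make these keratins. In a bulk library, fewer cells of a type and less RNA per cell cannot be told apart.

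The sequencing depth was similar in both groups. Total counts were between 48405915 and 56071424 in the 4-digit series and between 37027981 and 82208651 in the 3-digit series. Haemoglobin genes took 75.7% to 82.0% of the counts in the 4-digit series and 68.7% to 87.4% in the 3-digit series. The remaining counts numbered 8795966 to 12626945 and 4655155 to 22174654. Over 7 library measures, the share of ribosomal protein genes among counts outside haemoglobin differed, with a mean of 4.35% ± 0.264 (SD, n = 7) in the 4-digit series and 5.63% ± 0.888 (SD, n = 22) in the 3-digit series (exact permutation test, two-sided, p = 0.0012, adjusted p = 0.00841 over the 7 measures). For the other 6 measures the adjusted p was between 0.264 and 0.8. The values of the 4-digit libraries lay closer together than those of the 3-digit libraries in each of the 7 measures. Blood markers were present in both groups (haemoglobins, Cd3e, S100a8 and Ly6c2, with values below), and counts of 4 Y-linked genes summed to at most 1 in any of the 178 libraries, while Xist had counts in every one.

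Of 13044 genes tested with edgeR's quasi-likelihood test, 456 were lower in the 4-digit series (3.5% of the genes tested) and 237 were higher (1.82%) once p-values were adjusted by Benjamini-Hochberg and held to 0.05 or less, which is what "passed", "rose" and "fell" mean below. With a fold change of at least 1.5 as a second condition, 164 were lower (1.26%) and 73 higher (0.56%). With the share of haemoglobin counts as a covariate, 2592 genes were lower and 2459 higher, and with limma on log2(TPM + 0.1) 136 were lower and 1 higher. The median log2 fold change over all genes tested was -0.02. Of the 456 genes that fell, 55 had 3 or fewer counts summed over the 7 libraries of the 4-digit series, and 44 of these had none. None of the 237 genes that rose had 3 or fewer counts over the 22 libraries of the 3-digit series. Every 4-digit library lay below every 3-digit library for 39 genes, 24 of them among the 55, and above every 3-digit library for 5 genes. The number of genes that passed depended on single mice: against 693 with all, it was 383 without NR-7203, 344 without NR-7220, 229 without NR-7222, 357 without NR-7223, 259 without NR-7224 and 1048 without NR-325 of the 3-digit series. Without NR-7218, 91 genes were higher and 223 lower.

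**Figure D1:**
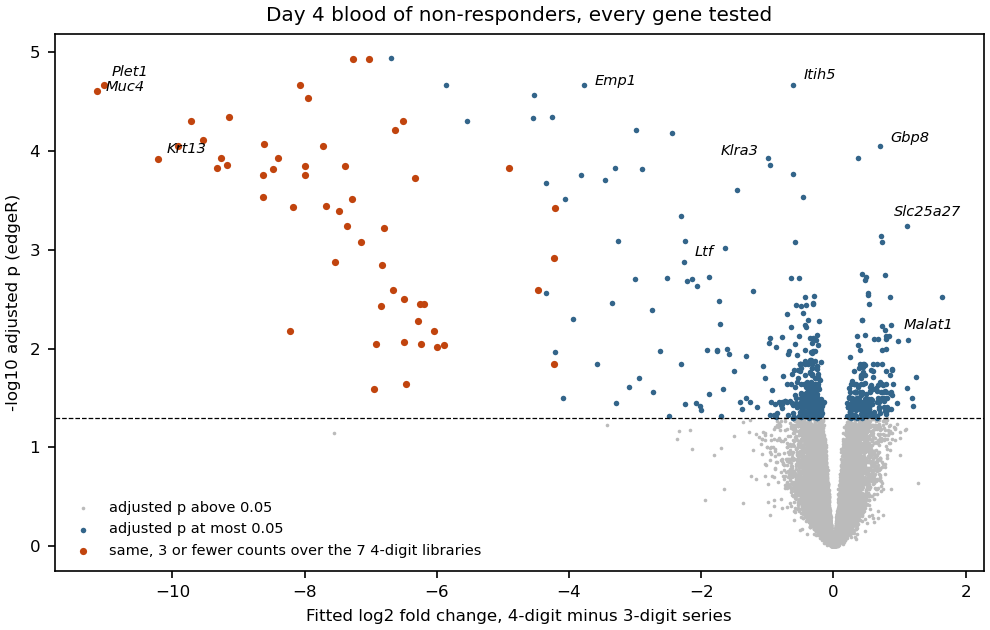
Fitted log2 fold change (4-digit minus 3-digit series, x axis) against the -log10 of the edgeR adjusted p (y axis) for the 13044 genes tested on Day 4; the dashed line marks an adjusted p of 0.05. The 55 genes with 3 or fewer counts over the 7 libraries of the 4-digit series lie far to the left, at fitted values that depend on the prior count of the fit and are no measured folds, while the genes that rose stay close to 0.

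The 55 genes included keratins, mucins and surface proteases of moist epithelium, while other keratins, such as Krt7 and Krt18, had counts in all 7 libraries of the 4-digit series. Krt13, a keratin of the upper layers of oral epithelium (chr11:100117327-100121566, minus strand, GRCm38), had 0 counts in all 7 libraries of the 4-digit series and 7 to 283 counts, with a median of 127, in the 22 libraries of the 3-digit series. The groups did not overlap, and against a floor of 3 counts over the 7 libraries Krt13 was at least 242-fold lower in the 4-digit series (edgeR adjusted p = 0.000122). Muc4, a membrane mucin of moist epithelia (chr16:32735886-32782391, plus strand), had 0 counts in all 7 libraries against 4 to 636 counts, with a median of 256.5, and was at least 504-fold lower (edgeR adjusted p = 2.47e-05). Plet1, a surface protein of epithelial progenitors (chr9:50494525-50505482, plus strand), had 0 counts in all 7 libraries against 11 to 514 counts, with a median of 254.5, and was at least 476-fold lower (edgeR adjusted p = 2.16e-05). These 3 genes had counts in 22 of 22 libraries of the other series.

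A set of 10 genes had the smallest p among those that fell at least 1.5-fold, with clone, Gm and accession symbols left out. Of these 10, Calml3, a calmodulin-like protein of epithelium, had 1 count in 1 of the 7 libraries against 6 to 148 counts, a ratio of 394 (95% counting interval 70.6 to 15600). Adgrf1, an adhesion receptor, and Fam84a likewise had 1 count each in the 4-digit series, against 2 to 87 and 1 to 216 counts per library in the 3-digit series. Mal, a lipid raft protein of apical transport and the gene with the smallest p of the 10, reached 0.0443 CPM at most in the 4-digit series and lay between 0.0842 and 4.2 CPM in the 3-digit series (log2 fold change -6.69 ± 0.77, SE). CPM here are counts per 1e6 reads of the library, scaled by TMM over all 178 libraries. Upk1b, a uroplakin, and Eps8l2, an actin regulator, were at most 0.037 and 0.0555 CPM in the 4-digit series and at least 0.0421 and 0.0701 CPM in the 3-digit series, so that neither overlapped. The 55 genes also held the proteases Prss27, Prss22, Prss8 and Tmprss4, the transporters Slc5a1 and Slc6a14, the epithelial transcription factor Elf3, the keratins Krt19, Krt23 and Krt75 and the gel-forming mucin Muc5ac. For 28 of the 55 genes, each of the 22 libraries of the 3-digit series had at least 1 count. Because they had next to no counts in the 4-digit series, these genes entered the test through the 3-digit series alone and so had to differ there. The same holds for Mal, Upk1b and Eps8l2, which had 5, 5 and 9 counts summed over the 7 libraries of the 4-digit series. Their p-values, folds and lack of overlap therefore support nothing further. Counting intervals and floors cover counting error only.

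Summed over the 55 genes, the 4-digit libraries held 2 to 4 counts each, with a median of 3, and the 3-digit libraries 125 to 4796 counts, with a median of 2314.5. Each 4-digit library had counts for 2 to 4 of the 55 genes and each 3-digit library for 32 to 55. The sums near 0 in the 4-digit series follow from how the 55 genes were chosen. By block of library numbers, the sums of the 3-digit series were 125 to 2771 counts in the 11 mice of libraries 16 to 29 and 1531 to 4796 counts in the 11 mice of libraries 30 to 44. The blocks held 3 and 4 mice of the 4-digit series. Within libraries 16 to 29 alone, edgeR called 0 of 12972 genes (2938 at an unadjusted p under 0.05, adjusted p = 0.146 for Krt13 and Muc4), and within libraries 30 to 44 alone it called 127 genes, 45 of them among the 55.

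On the list of mucosal epithelium and keratinocyte genes, 6 of the 11 members tested fell and none rose, with a median fitted log2 fold change of -4.35 against -0.02 for all genes. The 6 were Krt13, Krt4, Krt15, Krt6a, Krt6b and the calcium-binding S100a14. The 5 keratins had 0 counts in the 4-digit series and S100a14 had 5. All 6 passed the filter on low counts through the 3-digit series alone and had to fall. Neither the count of 6 nor the median, which was the value of S100a14, supports anything further. Krt6a had 0 counts in the 4-digit series and 4 to 48 counts in the 3-digit series, and Krt6b 0 counts against 1 to 90 counts. Of the 24 list members, 14 had no count in the 4-digit series, and 13 of these 14 had at least 1 count in the 3-digit series. The basal keratins Krt5 and Krt14 were at 0 in the 7 libraries and low in the others, with 0 to 32 and 0 to 24 counts, and were too low to be tested. Other list members did not pass: Krt18, a keratin of simple epithelium, had a log2 fold change of -0.63 (adjusted p = 0.305), Sfn, an epithelial 14-3-3 protein, of -0.19 (adjusted p = 0.217), Cdh1 of -0.01 (adjusted p = 0.973) and Epcam of -0.22 (adjusted p = 0.435), and each had counts in all 29 libraries. The level summed over the list, most of it Sfn, was 6.36 to 7.29 CPM in the 4-digit series and 6.44 to 23.8 CPM in the 3-digit series, so that the ranges overlapped.

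Genes with counts in all 7 libraries of the 4-digit series also fell by large amounts in this comparison. Emp1, an epithelial membrane protein (chr6:135362545-135383173, plus strand), was 0.384 to 0.928 CPM, median 0.62, in the 4-digit series and 0.631 to 17.3 CPM, median 8.11, in the 3-digit series. All 7 libraries lay below the median of the other series, and 21 of the 22 other libraries lay above all 7 (log2 fold change -3.77 ± 0.49, SE, edgeR adjusted p = 2.19e-05). Gsto1, a glutathione transferase, and Krt7, a keratin of simple epithelium, both chosen after their values were seen, had log2 fold changes of -2.98 ± 0.43 and -2.24 ± 0.40. Ltf, lactoferrin of neutrophil granules and of glandular secretions (chr9:111019271-111042767, plus strand), was 0.0738 to 0.589 CPM, median 0.421, against 0.266 to 5.43 CPM, median 1.51 (log2 fold change -2.26 ± 0.42, edgeR adjusted p = 0.00135). Chac1, an ATF4 target that degrades glutathione, was 0.0673 to 0.339 CPM against 0.126 to 2.06 CPM (log2 fold change -2.15 ± 0.41). The series overlapped for each of these 5 genes, Emp1, Gsto1, Krt7, Ltf and Chac1.

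**Figure D2:**
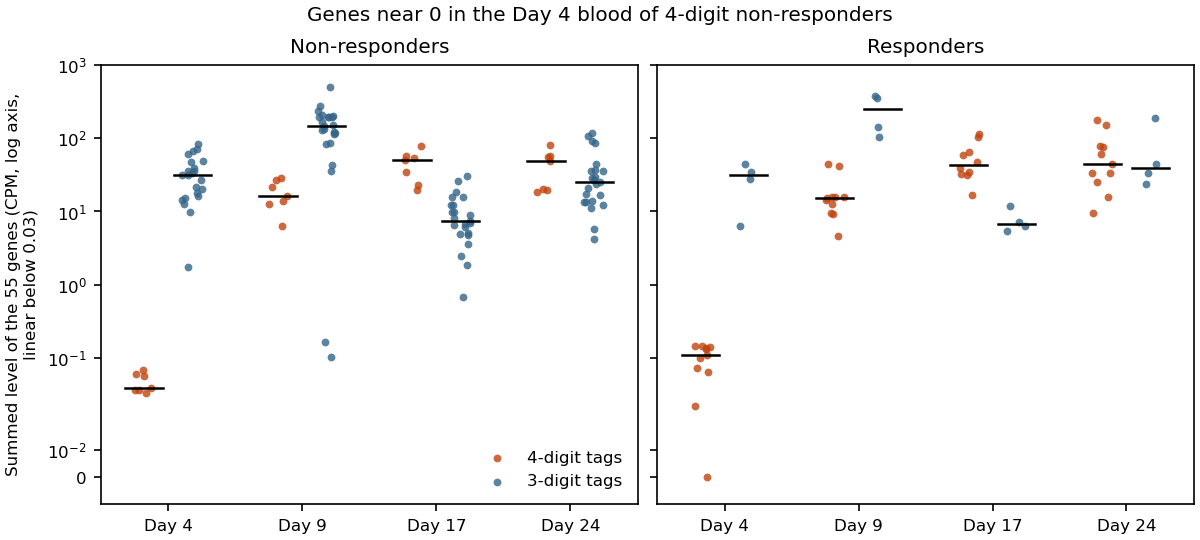
Level summed over the 55 genes (y axis, CPM, log scale that is linear below 0.03) in every library by day (x axis) and tag series, with non-responders on the left and responders on the right; each point is 1 library and each bar the group's median. On Day 4 the 7 non-responder and 11 responder libraries of the 4-digit series lie near 0 (at most 0.147 CPM), while the later bleeds of both series mostly lie above 1 CPM.

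Responders were not used to choose the 55 genes. On Day 4 the summed level was 0 to 0.147 CPM (0 to 12 counts) in the 11 responders of the 4-digit series and 6.39 to 44.3 CPM (530 to 1030 counts) in the 4 responders of the 3-digit series, without overlap. Across 12331 genes, edgeR called 18 as lower (0.146%) and 0 as higher (0%, with 262 at an unadjusted p under 0.05) in the responders of the 4-digit series. All 18 had also fallen in the non-responders. Of the 55 genes 13 were tested in the responders and 12 were among the 18, but these passed the filter on low counts through the 3-digit responders and so had to differ. They included Plet1 (adjusted p = 9.34e-08), Muc4 (adjusted p = 1.19e-07), Elf3, Prss27 and Krt13 (adjusted p = 0.0296). Krt13 had 0 counts in all 11 responders of the 4-digit series, and its levels in the 4 of the 3-digit series were 4.25, 4.44, 1.99 and 0.362 CPM in R-311, R-315, R-322 and R-327. The number called was 7 without R-311, 10 without R-315 and 8 without R-322. A test of whether the series difference itself differed between responders and non-responders called 0 of 13557 genes (0%, edgeR interaction term, 352 at an unadjusted p under 0.05), and again 0 with the haemoglobin genes removed before scaling. It rested on 4 responders of the 3-digit series, with an SE of 0.66 log2 units for Emp1 and 3.33 for Muc4. That no gene passed did not show the series difference to be the same in both response groups.

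In the later bleeds of the non-responders, the 4-digit libraries held these transcripts. The 3-digit series then had 23 mice, since NR-330 had libraries on these days and none on Day 4. The summed level of the 55 genes in the 4-digit series was 6.24 to 28.3 CPM on Day 9, 19.9 to 78.1 CPM on Day 17 and 18.6 to 81.8 CPM on Day 24. In the 3-digit series it was 0.101 to 507 CPM on Day 9, with a median of 148, 0.684 to 30.2 CPM on Day 17, with a median of 7.29, and 4.25 to 118 CPM on Day 24, with a median of 25.5. On Day 9, 49 of the 54 of these genes that were tested were still lower in the 4-digit series, beside 456 lower (3.49%) and 728 higher (5.57%) of 13080 genes. Genes low in the 4-digit series, such as Krt75 (median 0.0147 against 1.06 CPM), entered this test through the 3-digit series and had to be lower. On Day 17 the direction was the opposite, with 36 of 38 tested higher and 0 lower, beside 1329 higher (10.4%) and 1067 lower (8.34%) of 12789 genes. Genes low in the 3-digit series, such as Krt19 (median 0.032 against 0.302 CPM), entered that test through the 4-digit series and had to be higher. On Day 24 none of the 51 tested passed, beside 515 higher (4.05%) and 71 lower (0.558%) of 12724 genes. For Day 24 these counts rested on NR-7224, without whose library 4 genes were higher and 5 lower. For Day 9 the 1184 calls became 636 without NR-7220, 779 without NR-7222 and 604 without NR-7223.

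Krt13 shows this course in single values. It was 0.249 to 1.37 CPM in the 4-digit series on Day 9 against 0 to 20.7 CPM, with a median of 5.29, in the 3-digit series, where 2 of 23 libraries had no count. On Day 17 it was 0.526 to 2.96 CPM, with a median of 2.03, against 0 to 1.73 CPM, with a median of 0.241. The difference on Day 17 passed in the other direction (log2 fold change 1.95, edgeR adjusted p = 0.00206). Muc4 was higher in the 4-digit series on Day 17 as well, with 2.6 to 9.95 CPM against 0 to 2.94 CPM (log2 fold change 2.91, edgeR adjusted p = 1.92e-07). Emp1, Gsto1, Krt7, Ltf and Chac1 went the same way: each was lower on Days 4 and 9 and higher on Day 17, when their log2 fold changes were 2.18, 1.65, 1.65, 1.60 and 1.47 with edgeR adjusted p between 1.3e-07 and 0.000319. Whether the difference on Day 17 differed from that on Day 4 was not tested.

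**Figure D3:**
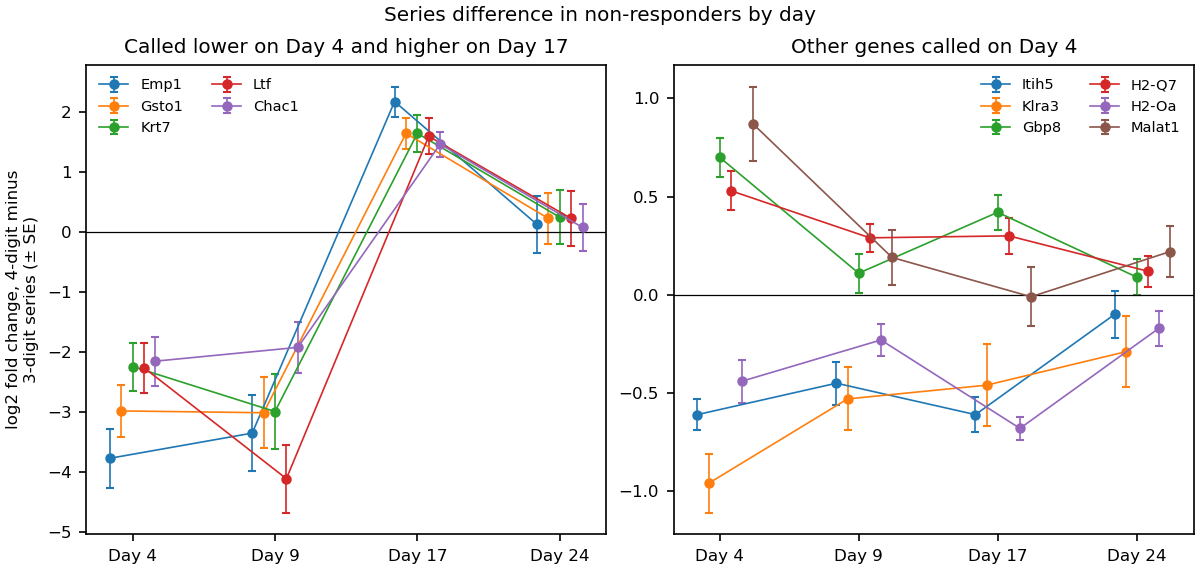
Series difference in the non-responders (log2 fold change, 4-digit minus 3-digit, y axis, ± SE) on each day (x axis), fitted separately for each day. The 5 genes on the left, picked for this course, lie below 0 on Days 4 and 9 and above 0 on Day 17, whereas those on the right, called on Day 4, differ by about 1 log2 unit or less on every day.

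Among genes that rose at least 1.5-fold (clone, Gm and accession symbols left out), the 10 with the smallest p had log2 fold changes between 0.68 and 1.11. Gbp8, of the interferon-inducible guanylate-binding proteins (chr5:105014150-105139540, minus strand), was 3.27 to 4.16 CPM, median 3.66, in the 4-digit series and 1.56 to 3.24 CPM, median 2.17, in the 3-digit series. The groups did not overlap (log2 fold change 0.70 ± 0.10, edgeR adjusted p = 8.97e-05). Slc25a27, a mitochondrial uncoupling protein, was 0.499 to 0.723 CPM against 0.0515 to 0.478 CPM (log2 fold change 1.11 ± 0.19), and Slc6a19, a neutral amino acid transporter, 1.27 to 1.46 CPM against 0.381 to 1.15 CPM (log2 fold change 0.72 ± 0.13), again without overlap. Cd200r3, an activating receptor of basophils and mast cells, was 0.66 to 0.846 CPM against 0.171 to 0.561 CPM (log2 fold change 0.78 ± 0.15). It was the 1 member of 13 tested on the basophil and eosinophil list that passed, while 1.82% of all genes were higher.

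Malat1, an abundant nuclear non-coding RNA, was 78.6 to 115 CPM, median 101, in the 4-digit series and 20.5 to 87.5 CPM, median 57.6, in the 3-digit series, with 21 of the 22 libraries below all 7 (log2 fold change 0.87 ± 0.19, edgeR adjusted p = 0.00579). Gabbr1, Mapk12, Tbx6, Shank1 and Slc5a3 had log2 fold changes between 0.68 and 0.85. They were the rest of the 10 genes with the smallest p among those that rose at least 1.5-fold. These encode a GABA receptor subunit, a p38 kinase, a T-box factor, a synaptic scaffold and an inositol transporter. Few of these calls were shared by the tests on TPM, which changed the unit, the scaling and the test together. On TPM, in which haemoglobin is part of the total and the median gene shifted by -0.13 on the log2 scale with a pseudocount of 0.1, limma called 1 gene as higher and an exact Wilcoxon rank-sum test 2, and none of the 237 genes was among them. Within libraries 30 to 44 alone 8 of the 237 passed, among them Gbp8, Slc25a27, Slc6a19 and Cd200r3, and Malat1 did not (0.65, adjusted p = 0.132). Of the 456 genes that fell, 88 passed with limma and 100 with the Wilcoxon test on TPM. Among these, 44 and 52 were of the 55 genes chosen for being near 0 in the 4-digit series, which had to differ.

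**Figure D4:**
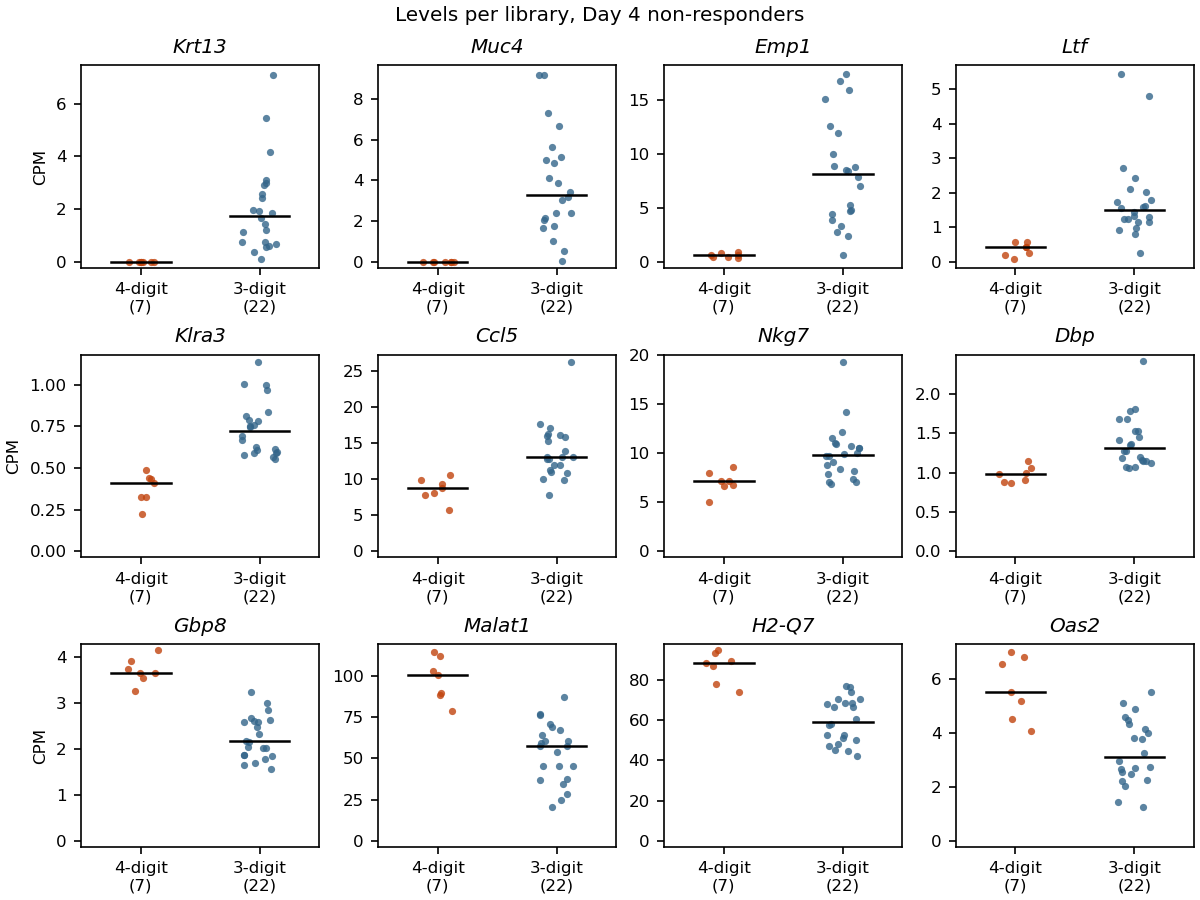
Levels (CPM, y axis, from 0) of 12 genes in each Day 4 non-responder library (points) of the 4-digit series (7) and the 3-digit series (22), with bars at the medians. Krt13 and Muc4 are at 0 in all 7 libraries, Gbp8 is above every 3-digit library, and Nkg7, Ccl5 and Dbp overlap between the series.

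Of 25 genes of cytotoxic and natural killer cells tested, 6 fell and 0 rose, against 3.5% lower among all genes, with a median log2 fold change of -0.24, and 23 of the 25 were below 0. Ccl5, a chemokine of effector T and natural killer cells, was 5.71 to 10.5 CPM, median 8.79, in the 4-digit series and 7.75 to 26.2 CPM, median 13.0, in the 3-digit series (log2 fold change -0.68 ± 0.16, edgeR adjusted p = 0.0114). Klrc1 and Klrb1c, lectin receptors of natural killer cells, fell by 0.55 and 0.60 on the log2 scale. Klra9, of the Ly49 receptor family, fell by 0.54 and the granzyme gene Gzma by 0.54. Nkg7, a granule protein of cytotoxic cells, was 5.02 to 8.6 CPM against 6.82 to 19.3 CPM (log2 fold change -0.50 ± 0.15, edgeR adjusted p = 0.0439), a call that held in 13 of 29 fits that each left out 1 library. Within the blocks of library numbers no call held: Ccl5 was at -1.07 in libraries 16 to 29 (edgeR adjusted p = 0.146) and at -0.33 in libraries 30 to 44 (adjusted p = 0.303), and Nkg7 at -0.81 and -0.21. Klra3, chosen after its values were seen, was 0.222 to 0.487 CPM against 0.554 to 1.13 CPM, without overlap (log2 fold change -0.96 ± 0.15). Reads of the Ly49 genes, of Krt6a and Krt6b, of H2-Q6 and H2-Q7 and of the haemoglobins can be split between near-identical copies, so that the share of each copy is uncertain. The summed level of the cytotoxic list overlapped between the series, at 59.5 to 97.6 CPM and 73.6 to 172 CPM. In the responders, where 0.146% of all genes were lower, 0 of 26 members tested passed, with a median of -0.08.

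None of the 28 members tested for the T cell receptor complex and T cell identity passed (median -0.16, 25 of 28 below 0): Cd3e, a chain of the receptor complex, was 11.2 to 13 CPM against 9.57 to 15.5 CPM (log2 fold change -0.13, adjusted p = 0.257). As background for the counts in this paragraph, 3.5% of all genes tested were lower and 1.82% higher. Of 20 checkpoint, regulatory and homing receptor genes, Tox, a transcription factor of exhausted T cells, fell by 0.53 (adjusted p = 0.00194) and Tnfrsf18, the receptor GITR, by 0.35 (adjusted p = 0.0355). Of 25 mature B cell genes, the complement receptor Cr2 rose by 0.26 on the log2 scale and the IgD constant gene Ighd fell by 0.26. The plasma cell list had 1 gene that fell of 15 tested, the chaperone Mzb1 (log2 fold change -0.33).

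Few antigen presentation genes passed, and in both directions. Of 11 genes of MHC class II presentation (median -0.31, 9 of 11 below 0), H2-Oa (log2 fold change -0.44) and H2-Eb2 (-0.31) fell. H2-Oa, a chain that restrains peptide loading, was 8.58 to 11.1 CPM against 10.7 to 22.4 CPM, and 21 of the 22 libraries of the 3-digit series were above all 7. Of 18 genes of MHC class I and the immunoproteasome, the non-classical H2-Q7 and H2-Q6 rose by 0.53 and 0.49. H2-Q7 was 73.9 to 95.2 CPM against 42.1 to 77 CPM, with 19 of 22 libraries below all 7 (edgeR adjusted p = 0.00277). Within the blocks its log2 fold changes were 0.66 and 0.41 and did not pass. Of 35 interferon-stimulated genes 4 rose and 0 fell (median 0.13): Oas2, which makes the messenger that activates RNase L (log2 fold change 0.75), Ifi213 (0.54), the ubiquitin ligase Herc6 (0.35) and Xaf1 (0.30). The shares of all genes that passed, given above, are the background for these counts.

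Calls on the myeloid lists stand against 3.5% lower and 1.82% higher among all genes tested. Of 18 neutrophil granule genes tested (median -0.29, 17 below 0), Ltf and the chitinase-like Chil3 fell. Chil3 was 4.42 to 12.9 CPM against 9.56 to 31.1 CPM (log2 fold change -1.22 ± 0.24, edgeR adjusted p = 0.00262). The alarmins S100a8 and S100a9 had log2 fold changes of -0.25 (adjusted p = 0.434) and -0.19 (adjusted p = 0.56). Of 20 classical monocyte genes none passed (median -0.15, 17 below 0), with Ly6c2 at -0.15 (adjusted p = 0.526). Of 15 genes of non-classical monocytes (median -0.28, 15 below 0) Ear2, an eosinophil-type ribonuclease with close copies, fell (log2 fold change -0.73, adjusted p = 0.034). No member passed of the mature neutrophil, myeloid suppressor, Toll-like receptor and complement lists, with 19, 19, 21 and 12 genes tested. Where none passed, the test did not show that the levels were equal.

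Few genes passed among cytosolic ribosomal, mitochondrially encoded and platelet genes, and all tested members were below 0. The share of all genes that were lower, 3.5%, is the background for these counts. All 80 cytosolic ribosomal protein genes had log2 fold changes below 0 (median -0.49) and 6 fell, among them Rpl3 (-0.70) and Rpl6 (-0.62). Rpl3 was 110 to 138 CPM against 125 to 355 CPM, and its log2 fold change was -1.06 in libraries 16 to 29 and -0.29 in libraries 30 to 44, neither of which passed. All 13 mitochondrially encoded genes were below 0 (median -0.74) and 2 fell, mt-Nd5 (-0.88) and mt-Nd1 (-0.87), both subunits of complex I. The call of mt-Nd1 held in 10 of 29 fits that each left out 1 library. Of 58 nuclear genes of the respiratory chain and ATP synthase 4 fell, with Ndufa10 at -0.48. All 26 platelet genes were below 0 (median -0.48) and none passed. Pf4, platelet factor 4, was 42.5 to 77.5 CPM against 32.8 to 253 CPM (log2 fold change -0.64 ± 0.31, adjusted p = 0.179). Members of such a group move together from library to library, so that a count of those below 0 is not a count of independent events. The share of ribosomal counts given above differed in the same direction, and its part in these results was not tested.

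Red cell genes mostly did not pass, which did not show that their levels were equal. The level summed over the reticulocyte and membrane list had a median of 9820 CPM in the 4-digit series and 6450 CPM in the 3-digit series. The ranges, 6630 to 11600 and 3540 to 18900 CPM, overlapped. The 7 haemoglobin genes tested had a median log2 fold change of 0.03 and none passed, with Hbb-bt at 0.03 ± 0.38 and Hba-a1 at -0.09 ± 0.46. Of 30 reticulocyte and membrane genes none passed (median 0.18, 26 above 0), and of 15 genes of haem synthesis the mitochondrial transporter Abcb10 rose (log2 fold change 0.28, adjusted p = 0.04). The share of all genes that were higher was 1.82%.

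Genes that respond to the hour of day and to stress had scattered calls, beside 3.5% lower and 1.82% higher among all genes tested. Of 17 clock genes the repressor Nr1d1 (log2 fold change -1.04 ± 0.26) and the output factor Dbp (-0.49 ± 0.13) fell and Per2 rose (0.37 ± 0.11), while Per1 was at 0.05 (adjusted p = 0.703). Dbp was 0.863 to 1.14 CPM against 1.06 to 2.42 CPM, with all 7 libraries below the other median. Nr1d1 was 0.166 to 0.328 CPM against 0.255 to 1.38 CPM. The hour of the bleeds is not given in the labels. Of 13 glucocorticoid-induced genes Ddit4 (-0.93), an inhibitor of mTORC1, and Errfi1 (-0.59), an inhibitor of the EGF receptor, fell, and Fkbp5 was at -0.37 (adjusted p = 0.0792). Of 29 AP-1 and immediate early genes Jun fell (-0.29), of 21 ATF4, serine and folate genes Chac1 fell, and of 18 heat shock genes the regulator Hsf1 rose (0.33). Of 29 proliferation genes Rrm2, a ribonucleotide reductase subunit, rose (0.48) and the helicase subunit Mcm3 fell (-0.31). Of 44 spliceosome genes 2 rose, the splicing regulators Tra2a (0.65) and Srrm2 (0.46), and 2 fell. Replication-dependent histones had 0 of 13 that passed, and chemokine ligands 1 of 9, Ccl5. Among all 64 named genes that passed, 32 passed in each of the 29 fits that left out 1 library and 32 were lost in at least 1, with Srrm2 kept in 13, Cr2 and Rrm2 in 14, Jun in 16 and Abcb10 in 17.

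**Figure D5:**
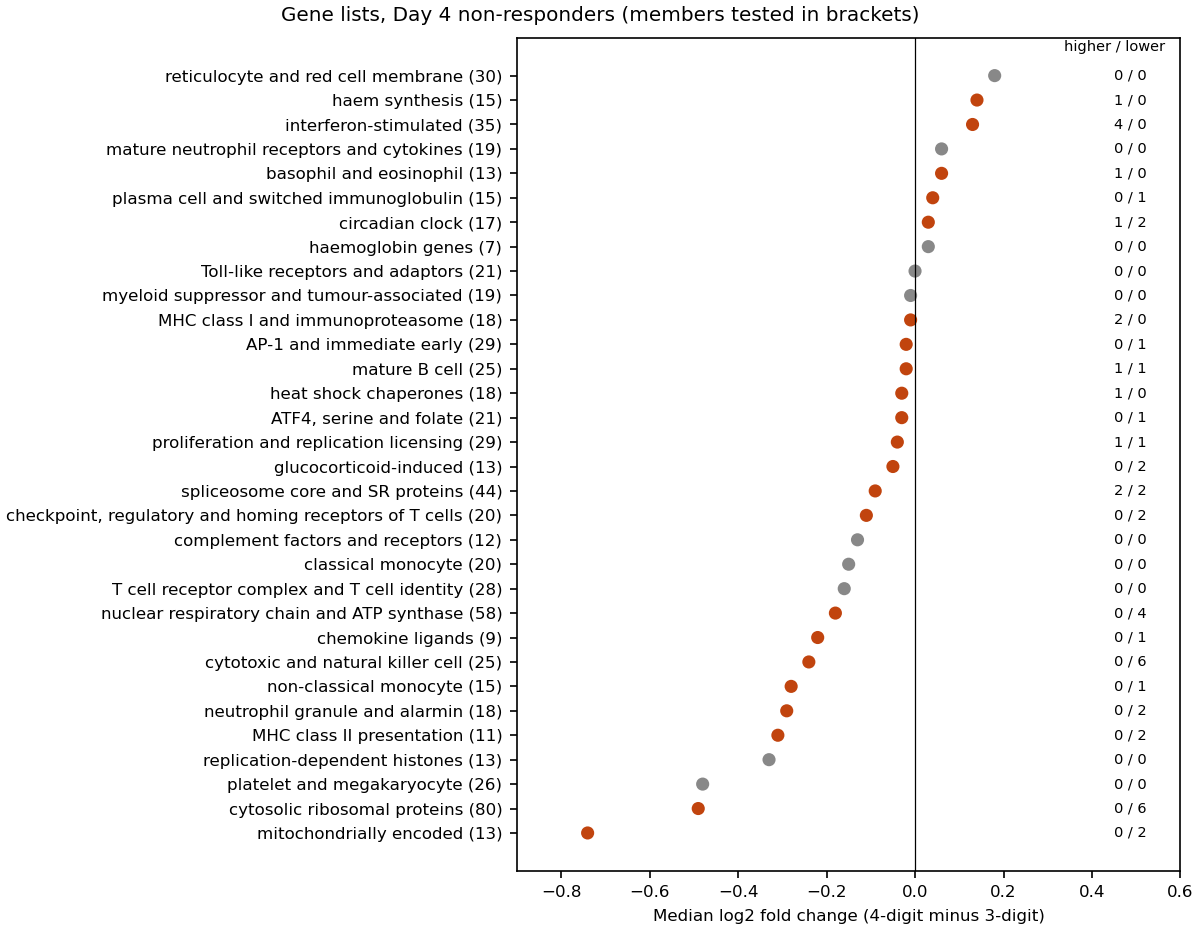
Median log2 fold change (4-digit minus 3-digit series, x axis) over the tested members of 32 gene lists on Day 4, with the number tested in brackets and the numbers higher and lower at the right; lists with at least 1 gene that passed are in orange and the others in grey. Mitochondrially encoded genes (-0.74) lie lowest and reticulocyte genes (0.18) highest among the lists drawn; the mucosal epithelium list, at -4.35, and the sex-linked list, with 1 gene tested (Xist, 0.38), are not drawn.

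The values on later days are given for 4 genes with moderate differences on Day 4. Itih5, a heavy chain of an inter-alpha-trypsin inhibitor, was 1.62 to 2.42 CPM, median 2.12, in the 4-digit series and 2.27 to 3.83 CPM, median 3.14, in the 3-digit series on Day 4, with 21 of the 22 libraries above all 7. Its log2 fold change was -0.61 on Day 4, -0.45 on Day 9 (adjusted p = 0.00973), -0.61 on Day 17 (adjusted p = 2.15e-05) and -0.10 on Day 24 (adjusted p = 0.718). H2-Q7 was higher on Day 9 (0.29) and Day 17 (0.30) as well, with edgeR adjusted p of 0.0056 and 0.0164. Gbp8 passed again on Day 17 (0.42, adjusted p = 0.00211) and not on Day 9 (0.11, adjusted p = 0.579). On Day 24 none of the 4 passed, with H2-Q7 at 0.12 (adjusted p = 0.469), Gbp8 at 0.09 (adjusted p = 0.631) and Malat1 at 0.22 (adjusted p = 0.39). Malat1 was at 0.19 on Day 9 (adjusted p = 0.461) and at -0.01 on Day 17 (adjusted p = 0.987). In the responders on Day 4, the log2 fold changes of Itih5, Gbp8, H2-Q7 and Malat1 were -0.26, 0.36, 0.21 and 0.03 with edgeR adjusted p between 0.835 and 0.985.

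The change of the series difference from Day 4 to Day 9 passed for 30 of 13673 genes (0.219%), 26 upward and 4 downward, in a fit without the mouse as a block. With the mouse as a replicate block, which pairs the libraries of each animal, 15 passed. Gp2 and Muc5ac, of the 55 genes, were among the 26, but with 0 counts in the 4-digit series on Day 4 their series difference could hardly change in the other direction. The genes named next were chosen after their values were seen. Scd3, a stearoyl-CoA desaturase of sebaceous and Harderian glands, had no count in 5 of 7 libraries of the 4-digit series on Day 4. On Day 9 it was at 0 CPM in NR-7203 and NR-7223 and at 3.48, 24.7, 2.51, 7.58 and 1.28 CPM in NR-7220, NR-7222, NR-7218, NR-7224 and NR-7225. In the 3-digit series Scd3 was at most 0.557 CPM on Day 9. Bpifa6, of a family of secreted lipid-binding proteins, was at 0 in all 7 libraries on Day 4 and reached 76.8 CPM in NR-7222 and 41.5 CPM in NR-7224 on Day 9, with a median of 10.4 against 0 in the 3-digit series. With the mouse as a block, the edgeR adjusted p was 0.027 for Scd3 and 0.0188 for Bpifa6. Both were at or near 0 in the 4-digit series on Day 4, so their series difference too could hardly change in the other direction. These p-values therefore support nothing further. Elovl5, a fatty acid elongase, was alike in both series on Day 4 (11.9 to 14.2 and 10.6 to 15.2 CPM) and 12 to 80.2 against 9.96 to 14.4 CPM on Day 9, with an adjusted p of 0.00233 without and 0.0794 with the mouse as a block. Per2 changed in the other direction (-0.62, adjusted p = 0.0451), and with the mouse as a block its adjusted p was 0.0866.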

How the data were processed

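Whole blood polyA RNA-seq libraries (SMARTer kit) were grouped by the response, day and ear tag in their labels. The Day 17 library of NR-7203 is labelled a responder, unlike its other bleeds, and was counted with the non-responders. The study's text gives both Day 4 and Day 7 as the start of treatment. The authors deposited estimated counts per gene, with STAR and mm10 named in the submitters' processing notes, and TPM values per gene symbol, which include haemoglobin in their total. The counting tool is not given in the sources used here. Identifiers matched GENCODE M21 (GRCm38), the source of the positions.

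Estimated counts were rounded and tested with edgeR 4.0.16 in R 4.3.3 (filterByExpr, TMM, glmQLFit, glmQLFTest, two-sided, Benjamini-Hochberg over all genes tested). Only the 2 groups compared entered each fit, apart from the 2 interaction tests. Alternatives used DESeq2 1.42.0, limma 3.58.1 on log2(TPM + 0.1) and log2(TPM + 1), exact Wilcoxon tests on TPM, other scalings, filters and covariates, and fits that left out 1 library each. The fit was tested on simulated data. The 4 bleeds of a mouse come from 1 animal, so the ear tag pairs them; the correlation of a mouse's deviations on Days 4 and 9 was between -0.407 and 0.399 (median 0.00645, 29 mice).

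Named genes were the 10 with the smallest p in each direction that passed an adjusted p of 0.05 with a fold of 1.5 or more (without clone, Gm and accession symbols), up to 4 with the smallest p per list of 34 lists, and a fixed set of markers. Gene names given to complete a count, or said to be chosen after their values were seen, lie outside this rule. The tag series, the lists and the tests were chosen with earlier results of these data known. All 55450 genes and every column of the count table were available to the fits. The depth, 37027981 to 82208651 counts per Day 4 non-responder library, leaves genes of a few counts imprecise. The lists had no set test. P-values measure the spread between mice within each series.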

Additional observations from a re-analysis of the deposited data

Results flagged for a closer look

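Of 123 gene and group pairs examined, 13 held 1 library far from the others of its group, where chance gives about 1 in 20. In the 4-digit non-responders on Day 4 these were, in CPM, Adgrf1 in NR-7222 (0.0193, with the others at 0), Calml3 in NR-7203 (0.0178, others at 0), Fam84a in NR-7223 (0.0148, others at 0) and S100a14 in NR-7224 (0.0673, others 0 to 0.0148), which are single or few counts. Gabbr1 was low in NR-7225 (3.72, others 5.26 to 6.4), and Rpl3 (138, others 110 to 119), Rpl6 (120, others 92.6 to 99.5) and mt-Nd1 (237, others 178 to 188) were high in the same mouse. In NR-7220, Cr2 was high (35.4, others 27 to 29.2) and Klrc1 low (0.768, others 1.21 to 1.68).

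In the 4 responders of the 3-digit series, R-327 had low Emp1 (1.53 CPM, others 7.5 to 10.1) and low Muc4 (0.434 CPM, others 3.24 to 3.78), and R-311 had low Mcm3 (4.94 CPM, others 5.81 to 5.87). The series difference of Per2 changed from Day 4 to Day 9 by -0.62 on the log2 scale (edgeR interaction term, adjusted p = 0.0451), a difference between bleeds that did not pass with the mouse as a block (adjusted p = 0.0866).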

How the results depend on the processing

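On Day 4, the 693 genes that passed in non-responders (237 higher, 456 lower) became 237 (73 and 164) with the fold condition, 1360 (533 and 827) with DESeq2, 422 with 10 counts required in every library (264 lower, with 0 of the 55 genes near 0 left to test), 137 (1 and 136) and 75 (2 and 73) with limma on log2(TPM + 0.1) and log2(TPM + 1), 151 (2 and 149) with the Wilcoxon test on TPM, 1167 (461 and 706) with all 44 Day 4 libraries, and 5051 (2459 and 2592) with the haemoglobin share as a covariate. With every gene counted at least once, 144 were higher. Alternatives chosen after seeing the data gave 0 (0 and 0) in libraries 16 to 29 and 127 (18 and 109) in libraries 30 to 44. The cause of these differences was not tested. Size factors, removal of haemoglobin genes and, chosen after seeing the data, the library number block as a covariate left the total within 1.5 times. DESeq2 passed all 693.

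Leaving out 1 library gave totals of 229 to 1048 (52 to 391 higher, 177 to 657 lower) on Day 4. Leaving out each of the 4 responders of the 3-digit series gave 7 to 26, and leaving out each of the 7 non-responders of the 4-digit series gave 604 to 1230 on Day 9, 1663 to 2371 on Day 17 and 9 to 853 on Day 24, where the lowest came without NR-7224. Other libraries of these comparisons were not left out. The fold condition gave 510 (253 and 257) on Day 9, 547 (453 and 94) on Day 17 and 14 lower on Day 24. With the mouse as a replicate block, the 30 changes from Day 4 to Day 9 became 15, 12 of them upward. Of 64 named genes that passed, none changed direction in the alternatives run, and 21, 16 and 19 passed with limma (both pseudocounts) and the Wilcoxon test on TPM. The planned fit with sex was not run, since no library had more than 1 count of the Y-linked genes and all 178 had Xist counts, the pattern of female mice. The study's methods, in contrast, state that male and female mice were used.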
